A study of Mus musculus with 12 samples.

Results

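The genes described here encode the enzymes that break down glucose, store it as glycogen or send it through the pentose phosphate pathway, together with glucose transporters of the plasma membrane. They were chosen by name, as a list of 38 genes, and all 38 were found among the 34866 genes of the expression table. RNA with polyA tails was measured in mouse embryonic fibroblasts (MEFs), cells grown out of embryos, in 4 groups of 3 libraries: male and female, wild-type (WT) and Sirt3 knock-out (KO). Sirt3 is a deacetylase of mitochondria, and the design asks whether its loss acts differently in cells of each sex. The WT cells were Sirt3+/+ and the KO cells Sirt3-/-, and their day 13 embryos came from mothers of strain 129S1/SvImJ (WT) or of a Sirt3 knock-out stock. All lines had been immortalized with an SV40 plasmid, were seeded at passage 6 with 400000 cells per well, and were harvested after 48 h. The sources do not say how many lines stand behind each group, so if each group is 1 line, the line cannot be told apart from sex or genotype, and the p-values measure the spread between cultures.

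Glycolysis turns glucose into pyruvate through a chain of enzymes in the cytosol and yields ATP and NADH. The committed step is the phosphorylation of fructose 6-phosphate by phosphofructokinase. Glucose 6-phosphate can leave the chain for glycogen, or for the oxidative branch of the pentose phosphate pathway, which makes NADPH and ribose phosphate. Most steps have several isozymes encoded by separate genes, and cultured fibroblasts usually take up glucose through the transporter encoded by Slc2a1.

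Values are TPM, transcript abundances corrected for gene length and scaled to the same sum in each library, so that levels may be compared between genes. The TPM table does not give the sequencing depth. The targeted gene was examined first. Sirt3 had 6.58, 7.17 and 9.07 TPM in the male WT libraries and 8.88, 10.9 and 11.0 TPM in the libraries labelled male KO. In female cells it had 7.40, 7.60 and 8.69 TPM in WT and 7.57, 9.06 and 8.19 TPM in the libraries labelled KO. The WT and labelled KO values overlap in both sexes, and the log2 difference was 0.39 (SE 0.14) in male and 0.06 (SE 0.11) in female cells, with adjusted p = 0.0981 and 0.772 (limma, Benjamini-Hochberg). TPM summed per gene cannot tell an intact transcript from a disrupted one, so it did not check the genotype labels, and each direction below is that of the libraries labelled KO.

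Fibroblast markers were present in every group: 9 of 10 had a group mean of at least 1 TPM, Col1a1 was the most abundant, and Lum was near 0. Their summed level was 9752 ± 588 TPM (SD, n = 3) in male WT, 11770 ± 349 TPM in labelled male KO, 8048 ± 98.6 TPM in female WT and 9922 ± 184 TPM in labelled female KO cells. Of the 9 tested, 4 were higher than in WT for male cells labelled KO and 7 for female cells labelled KO. Epithelial markers were also seen. Their sum was 77.2 ± 0.935 TPM in male WT, 8.25 ± 0.469 TPM in labelled male KO, 21.8 ± 1.73 TPM in female WT and 8.48 ± 1.58 TPM in labelled female KO cells. Krt19 was the most abundant of them. Means fell under 1 TPM for 3 of the 6 in both WT groups and 5 of the 6 in both labelled KO groups, and all 3 tested were lower in labelled KO cells of each sex. Neural markers, led by Map2, summed to 132 TPM in male WT, 97.8 TPM in labelled male KO, 176 TPM in female WT and 114 TPM in labelled female KO cells. Of 4 tested, 1 was higher and 2 lower in labelled male KO cells, and 2 were lower in female cells. In the same order of groups, muscle markers (led by Acta1) summed to 10.8, 8.51, 15.1 and 11.1 TPM, with 1 of 3 tested higher and 1 lower in labelled KO cells of each sex. Endothelial markers summed to 2.79, 1.69, 5.55 and 2.24 TPM, and Kdr, the 1 tested, was lower in labelled female KO cells (-1.06). Blood markers (led by Cd68) summed to 9.24, 11.1, 11.5 and 9.56 TPM, with 0 of 2 tested called. The sum of hepatocyte markers had a mean under 0.1 TPM in each group and reached 0.293 TPM in male WT replicate 3. In these bulk libraries fewer cells of a type and less RNA per cell cannot be told apart, and the part of these markers in the results below was not tested.

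Members spanned a wide range of levels. Averaged over the 12 libraries, 12 of the 38 genes reached 100 TPM, 17 lay between 10 and 100 TPM, 6 between 1 and 10 TPM and 3 under 1 TPM. The median over all 38 members, including the 3 under 1 TPM, was 28.6 TPM. For the genes tested, which exclude those averaging under 1 TPM, it was 22.3 TPM. Gapdh (2506 TPM), Pkm (1659 TPM), Eno1 (826 TPM), Aldoa (775 TPM), Pgam1 (527 TPM) and Pgk1 (497 TPM) made up 77.4% of the TPM of all members. These 6 encode enzymes of glycolysis from fructose bisphosphate to pyruvate. Hexokinase transcripts of the opening step, mainly Hk1 (43.5 TPM) and Hk2 (19.9 TPM), lay far below those levels. At the low end, Hkdc1 (0.0558 TPM), Aldoc (0.912 TPM) and Pygl (0.524 TPM) fell under the filter of a mean of 1 TPM, so 35 members entered the test and these 3 were read from a fit of all 22401 genes above 0 TPM. Spread between cultures grew as levels fell: the median coefficient of variation within groups was 2.28% for members of 100 TPM or more, 5.62% for those of 10 to 100 TPM and 18.0% for those under 10 TPM that were tested.

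**Figure D1:**
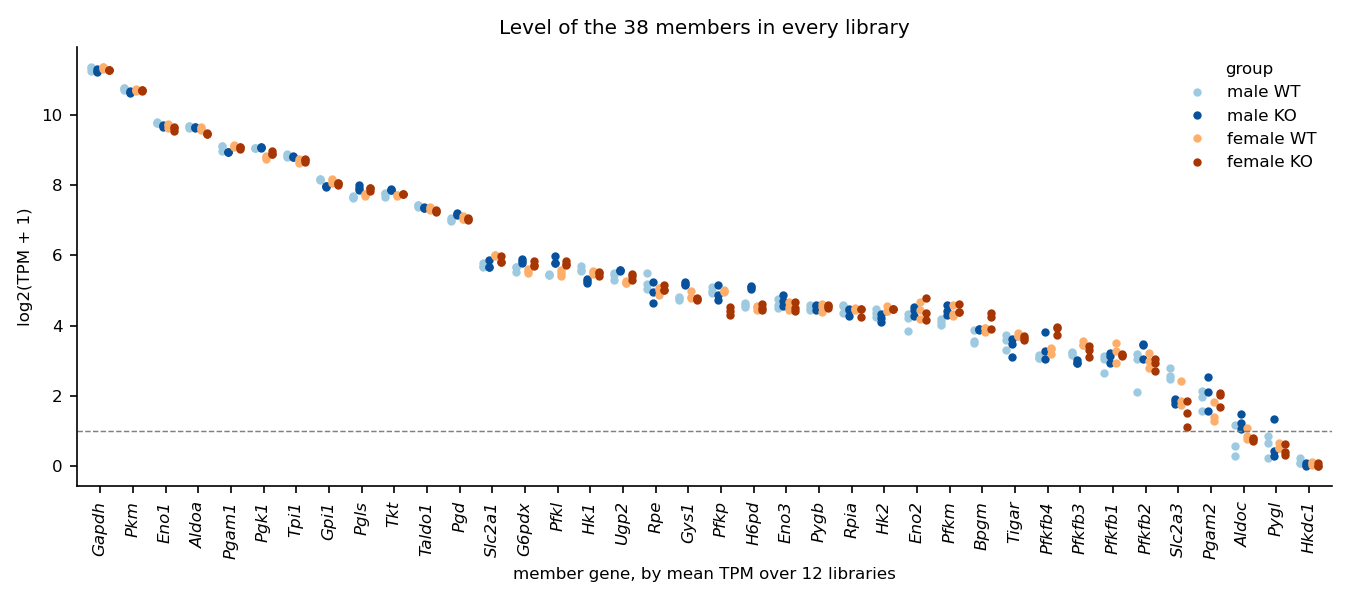
Level of each of the 38 genes in every library, as log2(TPM + 1), coloured by group and ordered by mean TPM, with a dashed line at 1 TPM. Gapdh and Pkm are highest, and Hkdc1, Aldoc and Pygl lie under 1 TPM on average.

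Some of these levels are uncertain because near-identical copies share sequence. A search by symbol, made after the data had been seen, found 17 copies or pseudogenes of these and of lactate dehydrogenase genes, and 2 had a mean of at least 1 TPM. The search covered a few name forms for some of the genes only, so copies under other names were not looked for. Eno1b, listed as a protein-coding copy of Eno1, had 639 TPM, and Pgam1-ps2, a processed pseudogene, had 187 TPM. How reads were divided between Eno1 and Eno1b, or Pgam1 and Pgam1-ps2, cannot be told from gene-level values. Eno1b differed between labelled KO and WT by -0.12 in male (adjusted p = 0.142) and -0.12 in female cells (adjusted p = 0.0640, limma, Benjamini-Hochberg), and Pgam1-ps2 by -0.045 and -0.092 (adjusted p = 0.808 and 0.482). Aldoa has a second identifier with a mean of 3.25 TPM, which was not used.

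The test was limma on log2(TPM + 1), over the 12504 genes that averaged 1 TPM or more, and a gene was called at a Benjamini-Hochberg adjusted p under 0.05. Fold changes on this scale understate the change of low genes. Between labelled male KO and male WT cells, 12 of the 35 tested members were called, 8 higher and 4 lower, where 21.6% of all genes tested were called. Between labelled female KO and female WT cells, 6 were called, 4 higher and 2 lower, where 11.5% of all genes were. The members' share of calls was thus 34.3% in male and 17.1% in female cells. The female share fell below that of all genes without WT replicate 1, WT replicate 2, KO replicate 2 or KO replicate 3, with 2.86% beside 6.60% for the last. With the replicate number as a block it was also below, at 2.86% beside 5.36%. Whether the list differs from other genes was not tested. The median member moved little. Its log2 difference was 0.017 in male and -0.017 in female cells, beside -0.015 and -0.023 for all genes, and the median size regardless of sign was 0.16 beside 0.17 in male and 0.088 beside 0.13 in female cells.

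Calls of members were sensitive to single libraries, and calls over all genes were too. With any 1 of the 6 male libraries left out, the male count over all genes, 2707, became 1813 to 2318. Fits with a library left out have fewer samples, and whether members differ from other genes in this was not tested. In the male comparison 7 of the 12 member calls held under every alternative run (Slc2a3, Hk1, Gpi1, Pfkl, H6pd, Pgls and Gys1), and in the female comparison 1 of 6 did (Pfkp). Slc2a3, with a mean of 3.20 TPM, was not in the run with a filter of 5 TPM, so it had 12 such runs where the others had 13. Lists of lost calls and ranges of adjusted p given gene by gene leave out the fit with a replicate block, which also lost calls. Its adjusted p (limma, Benjamini-Hochberg) was 0.0608 for Pfkfb4 in female cells and 0.103 for Tkt between labelled KO cells, above the ranges below. The count of members called fell from 12 to 7 without male WT replicate 3, male KO replicate 1 or male KO replicate 3. In female cells it fell from 6 to 2 without WT replicate 1, WT replicate 2 or KO replicate 2, to 3 without WT replicate 3, and to 1 without KO replicate 3. Over all genes, the female count of 1434 became 774 to 835 with any 1 of the 6 libraries left out: 790, 820 and 774 without WT replicate 1, 2 and 3, and 814, 835 and 825 without KO replicate 1, 2 and 3. Scaling by median-of-ratios size factors turned the female split of all genes from 704 higher and 730 lower to 841 and 577, and quantile normalization turned that of the female members from 4 and 2 to 3 and 3.

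**Figure D2:**
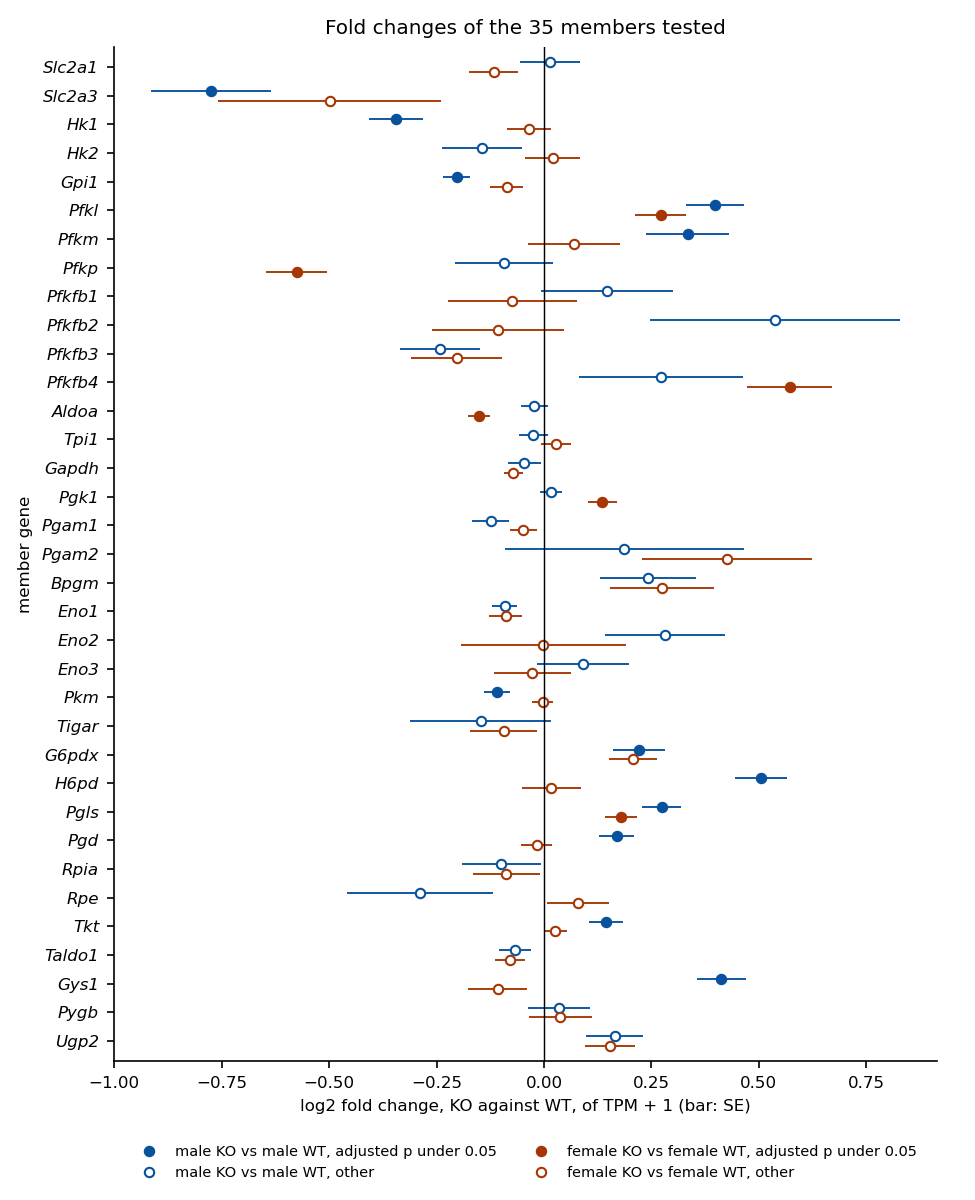
Log2 difference between labelled KO and WT cells for each tested member, with its SE, in male and female cells (3 libraries per group), on the log2(TPM + 1) scale. Pfkl and Pgls are called in both sexes, H6pd and Gys1 in male cells, and Pfkp in female cells.

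Glucose enters these cells through facilitative transporters. Slc2a1, which encodes the widely expressed transporter GLUT1, was the main one, with a mean of 51.5 ± 1.95 TPM in male WT, 52.1 ± 4.28 TPM in labelled male KO, 62.7 ± 0.790 TPM in female WT and 57.8 ± 4.18 TPM in labelled female KO cells (SD, n = 3). Its difference between labelled KO and WT was 0.013 in male (adjusted p = 0.919) and -0.12 in female cells (adjusted p = 0.246, limma, Benjamini-Hochberg), and was not called in either. Slc2a3 (ENSMUSG00000003153.10, chr6:122727809-122801640, minus strand), which encodes the high-affinity transporter GLUT3, was far less abundant. It had 4.97, 4.57 and 6.00 TPM in male WT and 2.40, 2.79 and 2.605 TPM in labelled male KO libraries. The groups do not overlap: each labelled KO library lies below each WT library. Slc2a3 fell by 0.77 on the log2 scale (SE 0.14; adjusted p = 0.00878, limma, Benjamini-Hochberg), a ratio of mean TPM of 0.502. The female libraries had 4.35, 2.35 and 2.62 TPM in WT and 2.64, 1.19 and 1.88 TPM in labelled KO libraries, which overlap, and the Slc2a3 difference of -0.50 (SE 0.26) was not called (adjusted p = 0.273). Slc2a3 made up 9.14% of the TPM of this pair in male WT and 4.76% in labelled male KO cells, and Slc2a1 held the larger share of the pair in every group.

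Hexokinase traps glucose in the cell as glucose 6-phosphate. Hk1 (ENSMUSG00000037012.18, chr10:62268855-62379908, minus strand), the isozyme of most tissues, had 45.9, 50.9 and 47.3 TPM in male WT and 36.1, 39.4 and 37.3 TPM in labelled male KO libraries. All 3 labelled KO values lie below the WT values. The gene fell by 0.35 on the log2 scale in male cells (SE 0.063; adjusted p = 0.00927, limma, Benjamini-Hochberg). Female cells had 43.1, 44.8 and 46.0 TPM in WT and 41.6, 45.1 and 44.1 TPM in labelled KO libraries, which overlap (log2 difference -0.035, adjusted p = 0.719). The change in male cells differed from that in female cells by -0.31 (SE 0.079; adjusted p = 0.0236 in the limma interaction test), a call lost without male WT replicate 2 (0.0533), male KO replicate 1 (0.0544), male KO replicate 3 (0.0516), female WT replicate 1 (0.0592), female KO replicate 2 (0.0582) or female KO replicate 3 (0.0539), over a range of 0.00871 to 0.0592. Hk2, the isozyme of muscle and many tumours, had means of 19.6 TPM in male WT, 17.6 TPM in labelled male KO, 21.04 TPM in female WT and 21.3 TPM in labelled female KO cells and was not called. Hkdc1, a hexokinase-like gene, stayed under 0.2 TPM in each library. Hexokinase TPM in total went from 67.7 ± 4.06 to 55.3 ± 2.72 between male WT and labelled male KO cells, without overlap, and from 65.8 ± 1.98 to 64.9 ± 1.76 in female cells, with overlap. Totals and isozyme shares were compared by an exact permutation test (two-sided, 60 comparisons). With 3 libraries against 3 its smallest p is 0.1, which becomes 0.286 after Benjamini-Hochberg adjustment, so none could pass.

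Glucose 6-phosphate isomerase, encoded by Gpi1 (ENSMUSG00000036427.5, chr7:34201330-34230336, minus strand), makes fructose 6-phosphate. Gpi1 had 282, 290 and 288 TPM in male WT and 246, 251 and 250 TPM in labelled male KO libraries, with a gap between the groups much wider than the spread inside either. It fell by 0.20 on the log2 scale (SE 0.031; adjusted p = 0.00450, limma, Benjamini-Hochberg). Female cells had 279, 265 and 286 TPM in WT and 266, 263 and 253 TPM in labelled KO libraries. These overlap, and the difference of -0.087 was not called (adjusted p = 0.206).

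Phosphofructokinase-1 commits the sugar to glycolysis and works as a tetramer of subunits named for liver (Pfkl), muscle (Pfkm) and platelet (Pfkp). Pfkl was higher in labelled KO cells of both sexes, Pfkm in male cells, and Pfkp was lower in female cells. Pfkl (ENSMUSG00000020277.10, chr10:77986947-78010083, minus strand) had 42.6, 42.3 and 43.8 TPM in male WT and 54.2, 62.6 and 54.2 TPM in labelled male KO libraries. Among female libraries it had 43.9, 41.9 and 47.3 TPM in WT and 56.0, 53.0 and 52.2 TPM in labelled KO libraries. In both sexes every labelled KO library lies above every WT library. Pfkl rose by 0.40 in male (SE 0.068; adjusted p = 0.00735) and by 0.27 in female cells (SE 0.059; adjusted p = 0.0308, limma, Benjamini-Hochberg). The female call was lost without the filter on low values (0.0691) and without WT replicate 1 (0.0950), WT replicate 2 (0.0850), KO replicate 1 (0.0943), KO replicate 2 (0.0800) or KO replicate 3 (0.0673), within a range of 0.0167 to 0.0950.

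Pfkm (ENSMUSG00000033065.14, chr15:98092589-98132451, plus strand) had 15.2, 17.4 and 16.4 TPM in male WT and 20.5, 23.2 and 18.9 TPM in labelled male KO libraries, without overlap. It rose by 0.33 (SE 0.097; adjusted p = 0.0488, limma, Benjamini-Hochberg), close to the threshold. This call was lost without the filter (0.102) and without any 1 of the 6 libraries: 0.136, 0.0715 and 0.118 without WT replicate 1, 2 and 3, and 0.106, 0.109 and 0.0520 without KO replicate 1, 2 and 3, within a range of 0.0241 to 0.136. The female libraries had 18.5, 22.9 and 19.3 TPM in WT and 23.7, 20.1 and 19.9 TPM labelled KO, which overlap (0.070, adjusted p = 0.728).

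Pfkp (ENSMUSG00000021196.14, chr13:6579768-6648777, minus strand) had 31.4, 30.2 and 30.8 TPM in female WT and 22.1, 20.3 and 18.8 TPM in labelled female KO libraries. The WT values sit close together and well above all labelled KO values. The gene fell by 0.58 on the log2 scale in female cells (SE 0.072; adjusted p = 0.00445, limma, Benjamini-Hochberg) and was called under every alternative run. In male cells it had 29.7, 30.6 and 33.6 TPM in WT and 28.0, 34.6 and 25.7 TPM in labelled KO libraries. Labelled KO replicate 2 exceeds every WT library, and the difference of -0.093 was not called (adjusted p = 0.611). The interaction was 0.48 (SE 0.14; adjusted p = 0.0435). It was lost without the filter (0.0791), without male WT replicate 1 (0.0949) or 2 (0.0859), male KO replicate 1 (0.0589) or 2 (0.0538), female WT replicate 1 (0.0878), 2 (0.0709) or 3 (0.0817), and female KO replicate 2 (0.0799) or 3 (0.0984), within a range of 0.0185 to 0.0984.

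The make-up of phosphofructokinase-1 transcripts was compared as shares of their summed TPM. Pfkl held 47.4% ± 1.099 of the TPM of the 3 genes in male WT and 53.2% ± 1.49 in labelled male KO cells, and 46.5% ± 2.23 and 56.4% ± 1.25 in female cells (SD, n = 3). Pfkp held 34.6% ± 1.12 and 27.4% ± 1.38 in male, and 32.3% ± 1.07 and 21.4% ± 0.629 in female cells. None of these shares overlaps between WT and labelled KO libraries (exact permutation p = 0.1 for each, the smallest possible; adjusted p = 0.286). The total was 90.5 ± 3.12 TPM in male WT and 107 ± 11.5 TPM in labelled male KO cells, without overlap, and 95.4 ± 1.87 TPM and 95.35 ± 5.71 TPM in female cells, with overlap.

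**Figure D3:**
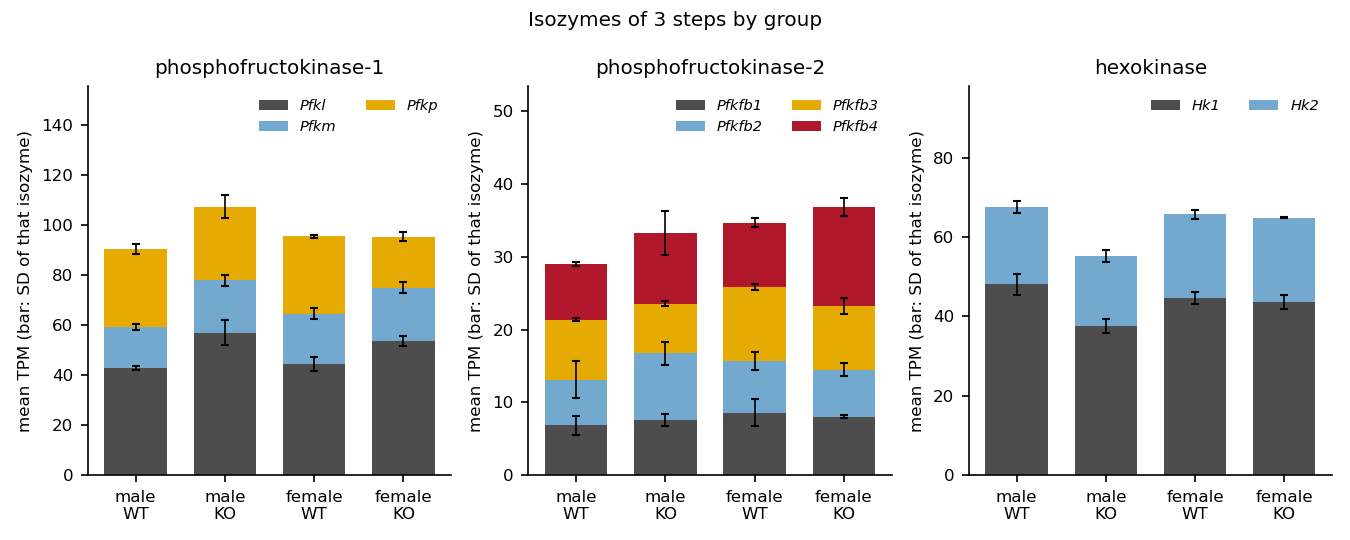
TPM of the isozymes of single steps, stacked as group means of 3 libraries with the SD of each isozyme, in WT and labelled KO cells of both sexes, without Hkdc1, which is near 0. The platelet-type Pfkp takes 32.3% of phosphofructokinase-1 TPM in female WT and 21.4% in labelled female KO cells.

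RefSeq promoter windows (build GRCm38.p6) are shown for Pfkm (called higher in male cells) and Pfkp (called lower in female cells), subunits of the same enzyme, and for Pgls, of the pentose phosphate pathway, called higher in both sexes. They were chosen after the values had been seen. Almost no annotated exon falls in them, which is also true of some windows not printed. It is not true of others: annotated exons cover 250 bases of the G6pdx window and 208 of a Pkm window. Some other windows of called genes hold no annotated exon. Those of H6pd, of 1 start each of Hk1 and Pgd and of another start of Pfkm have no match of the letters below. Those of Pgk1 (2 of ACGTG), 1 start of Aldoa (1 of ACGTG) and Pgam1 (1 of ACGTG, 2 of GCGTG) have matches and are not printed. Each printed window runs from up to 250 bases before the RefSeq start to the last base before the first GENCODE exon. The letters searched on both strands were ACGTG, the core of hypoxia response elements that is also part of the E-box CACGTG, and GCGTG, the other form of that core. Capitals mark the matches. The Pfkm window is chr15:98092339-98092588 on the plus strand, 1 of 4 RefSeq starts of this gene, and its CACGTG holds ACGTG on both strands. The Pfkp window is chr13:6648778-6649021 on the minus strand, with 3 matches of GCGTG, and the Pgls window is chr8:71591934-71592175 on the plus strand, with 1.
Pfkm: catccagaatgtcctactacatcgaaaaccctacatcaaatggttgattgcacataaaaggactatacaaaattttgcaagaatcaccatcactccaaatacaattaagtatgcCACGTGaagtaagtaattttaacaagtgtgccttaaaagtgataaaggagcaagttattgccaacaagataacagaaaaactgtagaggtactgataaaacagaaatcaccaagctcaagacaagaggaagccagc
Pfkp: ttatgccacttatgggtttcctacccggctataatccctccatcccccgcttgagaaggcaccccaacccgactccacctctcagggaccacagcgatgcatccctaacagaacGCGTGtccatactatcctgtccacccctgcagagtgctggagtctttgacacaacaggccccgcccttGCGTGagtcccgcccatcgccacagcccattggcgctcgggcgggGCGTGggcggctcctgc
Pgls: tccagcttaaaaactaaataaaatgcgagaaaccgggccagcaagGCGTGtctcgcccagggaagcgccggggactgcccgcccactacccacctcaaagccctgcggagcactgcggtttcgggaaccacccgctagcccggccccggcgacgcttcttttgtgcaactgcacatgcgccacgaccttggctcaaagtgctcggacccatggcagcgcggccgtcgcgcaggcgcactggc
In the promoter table used, 37 of the 38 genes were found, with 55 windows of 250 bases in all, and Slc2a3 was not. ACGTG stands in 29.1% of these windows and GCGTG in 50.9%, beside 16.6% and 28.2% of all 32851 promoter windows, and either stands in 65.5% and 38.6%. The letters are a description of these windows only, and several windows of 1 gene can overlap.

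Phosphofructokinase-2 enzymes set the level of fructose 2,6-bisphosphate, an activator of phosphofructokinase-1. Pfkfb4 (ENSMUSG00000025648.17, chr9:108991778-109032228, plus strand) had 9.32, 8.13 and 9.07 TPM in female WT and 12.2, 14.2 and 14.5 TPM in labelled female KO libraries. Every labelled KO library lies above the WT libraries, and Pfkfb4 rose by 0.57 (SE 0.099; adjusted p = 0.0152, limma, Benjamini-Hochberg). The call was lost without female WT replicate 2 (0.0505), KO replicate 2 (0.0575) or KO replicate 3 (0.0551), within a range of 0.0119 to 0.0575. In male cells the gene had 7.47, 7.49 and 8.02 TPM in WT and 8.68, 13.1 and 7.36 TPM in labelled KO libraries, where replicate 2 stands apart and replicate 3 lies below all WT values (0.27, adjusted p = 0.362). Its share of phosphofructokinase-2 TPM was 25.7% ± 3.66 in female WT and 37.0% ± 3.87 in labelled female KO cells (SD, n = 3), without overlap. Pfkfb3, the isozyme with the highest ratio of kinase to phosphatase activity, had means of 8.26 TPM in male WT and 6.83 TPM in labelled male KO cells (-0.24, adjusted p = 0.113), and of 10.2 and 8.77 TPM in female cells (-0.20, adjusted p = 0.275). Its share went from 28.9% to 20.8% in male and from 29.5% to 23.8% in female cells, again without overlap between libraries (exact permutation p = 0.1, adjusted p = 0.286). Pfkfb2 had 6.27 ± 2.57 TPM in male WT and 9.13 ± 1.62 TPM in labelled male KO cells, with overlap (0.54, SE 0.29, adjusted p = 0.241). It had 7.08 ± 1.24 and 6.48 ± 0.919 TPM in female cells (-0.11, adjusted p = 0.708), and the interaction of 0.64 was not called (adjusted p = 0.297). Pfkfb1 and Tigar, which encodes a phosphatase acting on the same activator, were not called, at mean levels of 7.75 and 11.1 TPM.

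Aldolase splits fructose bisphosphate, and almost all of its TPM came from Aldoa (ENSMUSG00000030695.16, chr7:126795234-126800751, minus strand). Aldoa had 800, 764 and 792 TPM in female WT and 706, 710 and 705 TPM in labelled female KO libraries. The labelled KO values lie within a few TPM of each other and below every WT value. Aldoa fell by 0.15 on the log2 scale (SE 0.025; adjusted p = 0.0140, limma, Benjamini-Hochberg), a call lost without WT replicate 1 (0.0518), WT replicate 3 (0.0587) or KO replicate 3 (0.0515), within a range of 0.00401 to 0.0587. In male cells it had 784, 827 and 817 TPM in WT and 808, 782 and 800 TPM in labelled KO libraries, which overlap (-0.022, adjusted p = 0.670). Aldoc, the brain-type isozyme, varied between 0.217 and 1.79 TPM over the 12 libraries and was not called in either sex without the filter (0.58, adjusted p = 0.296 in male; -0.15, adjusted p = 0.533 in female cells). Tpi1, which interconverts the triose phosphates, had 457 and 449 TPM in male and 411 and 419 TPM in female WT and labelled KO cells and was called in neither (-0.025, adjusted p = 0.659; 0.028, adjusted p = 0.672).

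In the ATP-yielding steps below the triose phosphates, 1 of 9 members was called in each sex (11.1%), beside 21.6% of all genes in male and 11.5% in female cells. Pgk1 (ENSMUSG00000062070.12, chrX:106187100-106203699, plus strand) encodes phosphoglycerate kinase, which makes the first ATP of this stretch, and lies on the X chromosome. It had 441, 425 and 450 TPM in female WT and 498, 474 and 475 TPM in labelled female KO libraries, without overlap. Pgk1 rose by 0.14 in female cells (SE 0.033; adjusted p = 0.0469, limma, Benjamini-Hochberg). The call was lost without the filter (0.1004), with quantile normalization (0.0517) and without any 1 of the 6 libraries: 0.115, 0.112 and 0.0750 without WT replicate 1, 2 and 3, and 0.116, 0.0864 and 0.0909 without KO replicate 1, 2 and 3, within a range of 0.00877 to 0.116. In male cells the gene had 531, 533 and 528 TPM in WT and 533, 539 and 538 TPM in labelled KO libraries, all within a narrow band (0.017, adjusted p = 0.706).

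Pyruvate kinase closes the pathway, and Pkm (ENSMUSG00000032294.17, chr9:59656368-59679375, plus strand) was its gene here. Its M1 and M2 splice forms cannot be told apart in gene-level values. Pkm had 1670, 1750 and 1742 TPM in male WT and 1568, 1595 and 1624 TPM in labelled male KO libraries, without overlap. It fell by 0.11 on the log2 scale (SE 0.030; adjusted p = 0.0432, limma, Benjamini-Hochberg). That call was lost without the filter (0.101), with median-of-ratios scaling (0.143), with quantile normalization (0.112), and without WT replicate 2 (0.117) or 3 (0.131) or KO replicate 1 (0.127), 2 (0.0915) or 3 (0.0759), within a range of 0.00985 to 0.143. The female libraries had 1672, 1622 and 1691 TPM in WT and 1676, 1665 and 1634 TPM labelled KO, and overlap (-0.0030, adjusted p = 0.956).

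The other genes of this stretch were not called between labelled KO and WT cells in either sex. Gapdh, which couples triose phosphate oxidation to NADH, had means of 2522 and 2442 TPM in male WT and labelled KO cells and 2592 and 2467 TPM in female cells. Eno1, the main enolase, had 875 ± 11.99 and 821 ± 17.8 TPM in male (-0.092, adjusted p = 0.0673) and 828 ± 29.4 and 779 ± 29.3 TPM in female cells (-0.089, adjusted p = 0.199, limma, Benjamini-Hochberg). With Eno2 (19.7 TPM on average) and Eno3 (23.5 TPM), the enolase total without the copy Eno1b went from 916 to 867 TPM in male and from 872 to 822 TPM in female cells, without overlap between libraries in either sex (exact permutation p = 0.1, adjusted p = 0.286). Eno1b itself had 674 and 619 TPM in male and 658 and 605 TPM in female WT and labelled KO cells. Pgam1, which moves the phosphate within phosphoglycerate, had 535 and 490 TPM in male (-0.12, adjusted p = 0.0842) and 551 and 532 TPM in female cells (-0.049, adjusted p = 0.374). Pgam2, its muscle isozyme, averaged 2.72 TPM. Bpgm, which makes 2,3-bisphosphoglycerate, had 11.7 and 13.9 TPM in male (0.24, adjusted p = 0.177) and 13.9 and 17.2 TPM in female cells (0.27, adjusted p = 0.204).

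In the oxidative branch of the pentose phosphate pathway, all 4 genes were called higher in labelled male KO cells, and 1 of 4 in labelled female KO cells, beside 21.6% and 11.5% of all genes. The male calls of H6pd and Pgls held under every alternative run, and those of G6pdx and Pgd were lost under some. The interaction was called for H6pd and Pgd, and was not called for G6pdx (0.014, adjusted p = 0.944) or Pgls (0.096, adjusted p = 0.359). G6pdx (ENSMUSG00000031400.10, chrX:74409483-74429194, minus strand) encodes the X-linked glucose 6-phosphate dehydrogenase that opens the branch. It had 49.7, 49.7 and 45.1 TPM in male WT and 54.0, 56.5 and 58.4 TPM in labelled male KO libraries, without overlap, and rose by 0.22 (SE 0.060; adjusted p = 0.0408, limma, Benjamini-Hochberg). The call was lost without the filter (0.0716) and without any 1 of the 6 libraries: 0.0669, 0.0680 and 0.117 without WT replicate 1, 2 and 3, and 0.0568, 0.0873 and 0.127 without KO replicate 1, 2 and 3, within a range of 0.0146 to 0.127. Its female values were 43.9, 47.5 and 45.7 TPM in WT and 56.2, 51.7 and 51.0 TPM in labelled KO libraries. These do not overlap either, but the difference of 0.21 (SE 0.056) missed the threshold (adjusted p = 0.0628).

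H6pd (ENSMUSG00000028980.14, chr4:149979475-150009023, minus strand) encodes the dehydrogenase of the endoplasmic reticulum, which makes NADPH inside that compartment. It had 22.9, 23.9 and 22.3 TPM in male WT and 32.0, 33.2 and 34.2 TPM in labelled male KO libraries. Every labelled KO library is above every WT library, by far more than the spread inside the groups. H6pd rose by 0.50 (SE 0.061; adjusted p = 0.00160, limma, Benjamini-Hochberg). In female cells it had 20.8, 22.0 and 22.6 TPM in WT and 20.9, 21.9 and 23.4 TPM in labelled KO libraries, which overlap fully (0.017, adjusted p = 0.902). The interaction was 0.49 (SE 0.085; adjusted p = 0.00264) and was called under every alternative run.

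Pgls (ENSMUSG00000031807.10, chr8:71592176-71601092, plus strand), the lactonase of the second step and the gene of the last window printed above, had 203, 196 and 204 TPM in male WT and 257, 243 and 232 TPM in labelled male KO libraries. In female cells it had 213, 213 and 204 TPM in WT and 228, 243 and 242 TPM in labelled KO libraries. The groups do not overlap in either sex. Pgls rose by 0.27 in male (SE 0.046; adjusted p = 0.00647) and by 0.18 in female cells (SE 0.037; adjusted p = 0.0278, limma, Benjamini-Hochberg). The female call was lost without the filter (0.0631), WT replicate 1 (0.0690), 2 (0.0655) or 3 (0.0912), or KO replicate 2 (0.0872) or 3 (0.0867), within a range of 0.0160 to 0.0912.

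Pgd (ENSMUSG00000028961.15, chr4:149149991-149166771, minus strand) encodes 6-phosphogluconate dehydrogenase, which makes the branch's other NADPH. It had 127, 132 and 124 TPM in male WT and 147, 140 and 144 TPM in labelled male KO libraries, without overlap. Pgd rose by 0.17 (SE 0.041; adjusted p = 0.0273, limma, Benjamini-Hochberg), a call lost without WT replicate 1 (0.0763), WT replicate 3 (0.0955), KO replicate 1 (0.0820) or KO replicate 3 (0.0831), within a range of 0.00578 to 0.0955. The female libraries had 138, 129 and 131 TPM in WT and 134, 129 and 131 TPM labelled KO, nearly the same values (-0.017, adjusted p = 0.810). The interaction was 0.19 (SE 0.053; adjusted p = 0.0384). It was lost with median-of-ratios scaling (0.0764) and without male WT replicate 1 (0.0753) or 3 (0.0923), male KO replicate 1 (0.0833) or 3 (0.0797), female WT replicate 1 (0.0906) or 3 (0.0657), and female KO replicate 1 (0.0513), 2 (0.0883) or 3 (0.0754), within a range of 0.0290 to 0.0923.

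In the non-oxidative branch, which returns pentoses to glycolysis, 1 of 4 genes was called in male and 0 in female cells, against the same shares of all genes. Tkt (ENSMUSG00000021957.7, chr14:30548359-30574720, plus strand), which encodes transketolase, had 201, 217 and 212 TPM in male WT and 232, 230 and 235 TPM in labelled male KO libraries. All labelled KO values lie above the WT values. Tkt rose by 0.14 (SE 0.039; adjusted p = 0.0409, limma, Benjamini-Hochberg), and the call was lost without the filter (0.0622), WT replicate 1 (0.0956) or 3 (0.0934), or KO replicate 1 (0.0963), 2 (0.0712) or 3 (0.119), within a range of 0.00561 to 0.119. Female cells had 210, 212 and 207 TPM in WT and 214, 214 and 212 TPM in labelled KO libraries (0.027, adjusted p = 0.561). Taldo1, the transaldolase gene, had 171 and 163 TPM in male (-0.067, adjusted p = 0.243) and 161 and 153 TPM in female cells (-0.079, adjusted p = 0.195). Rpia and Rpe, the isomerase and epimerase of pentose phosphates, averaged 20.8 and 32.7 TPM and were not called.

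Of the glycogen genes, Gys1 (ENSMUSG00000003865.16, chr7:45434844-45456619, plus strand), the glycogen synthase of tissues other than liver, was called in male cells. It had 25.6, 26.8 and 27.2 TPM in male WT and 34.8, 35.7 and 36.5 TPM in labelled male KO libraries. The gap between the groups is several times the spread inside them. Gys1 rose by 0.41 (SE 0.057; adjusted p = 0.00289, limma, Benjamini-Hochberg). Its female values were 26.7, 27.4 and 30.7 TPM in WT and 25.5, 26.7 and 26.2 TPM in labelled KO libraries, and the difference of -0.11 was not called (adjusted p = 0.365). The interaction was 0.52 (SE 0.084; adjusted p = 0.00150) and was called under every alternative run. Ugp2, which makes the UDP-glucose that glycogen synthase uses, had 41.5 ± 3.15 and 46.5 ± 0.853 TPM in male (0.16, adjusted p = 0.129) and 36.8 ± 1.03 and 41.1 ± 2.36 TPM in female cells (0.15, adjusted p = 0.143). The phosphorylases that break glycogen down were not called: Pygb, the brain-type gene, averaged 22.1 TPM, and Pygl, the liver-type gene, lay between 0.184 and 1.53 TPM.

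**Figure D4:**
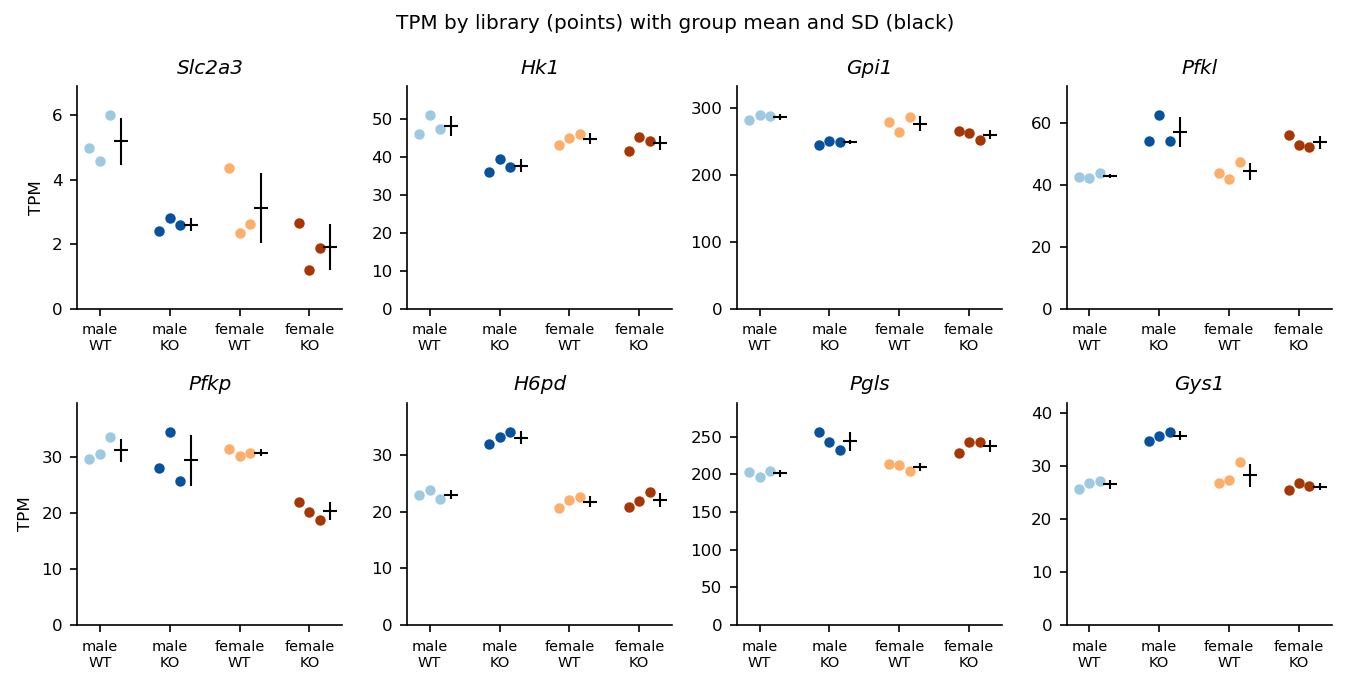
TPM in each library (points) with the group mean and SD (black) for the 8 genes whose call in male or female cells held under every alternative run. H6pd and Gys1 stand apart in the 3 libraries labelled male KO, and Pfkp in the 3 labelled female KO.

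The interaction test asks whether the difference between labelled KO and WT is the same in both sexes. It called 5 of 35 members, 4 with a larger value in male cells (Pfkp, H6pd, Pgd and Gys1) and 1 with a smaller one (Hk1), where 13.0% of all genes tested were called. The members' share, 14.3%, became 11.4% beside 13.5% of all genes with median-of-ratios scaling, and was below that of all genes in 7 of the 12 runs that left out 1 library. It was also below with a replicate block (8.57% beside 12.1%). H6pd and Gys1 were the calls that held under every alternative run. Without male KO replicate 1, female WT replicate 1, female KO replicate 2 or female KO replicate 3 the test called 2 members, and without male KO replicate 3 or female WT replicate 3 it called 3. It did not call 9 genes that were called in 1 sex alone, namely Slc2a3, Gpi1, Pfkm, Pfkfb4, Aldoa, Pgk1, Pkm, G6pdx and Tkt. Their adjusted p ran from 0.0537 for Aldoa to 0.944 for G6pdx (limma, Benjamini-Hochberg), so a difference between the sexes was not shown for them.

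Between male and female WT cells, 3 of 35 members were called, 2 higher and 1 lower in male cells, where 12.8% of all genes were called. Pgk1 was higher in male WT cells by 0.27 (adjusted p = 0.00174, limma, Benjamini-Hochberg), with all male values above all female values given above. Slc2a1 was lower in male WT cells (log2 difference -0.28, adjusted p = 0.00897). Its male WT libraries had 53.8, 50.7 and 50.1 TPM and its female WT libraries 62.9, 61.8 and 63.4 TPM, without overlap. Tpi1 was higher by 0.15 (adjusted p = 0.0432), a call lost without the filter (0.0983), with quantile normalization (0.107) and without male WT replicate 1 (0.113), 2 (0.0546) or 3 (0.106) or female WT replicate 1 (0.0515), 2 (0.117) or 3 (0.124), within a range of 0.0111 to 0.124. Quantile normalization left 1 call higher and 1 lower. The count over all genes, 1603, became 1053 without male WT replicate 3, 1068 without female WT replicate 1 and 1037 without female WT replicate 3.

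Between labelled KO cells, 7 of 35 members were called, 6 higher and 1 lower in male cells, where 16.6% of all genes were called. The members' share was below that of all genes without male KO replicate 1 (11.4% beside 11.6%) or female KO replicate 2 (8.57% beside 11.4%). H6pd (0.56, adjusted p = 0.00162), Gys1 (0.43, adjusted p = 0.00222) and Aldoa (0.17, adjusted p = 0.00451, limma, Benjamini-Hochberg) were higher in male cells under every alternative run. The other calls each depended on the libraries used. Pfkp was higher by 0.50 (adjusted p = 0.0314), lost without the filter (0.109), male KO replicate 1 (0.0728) or female KO replicate 1 (0.0542), 2 (0.0871) or 3 (0.0981), within a range of 0.00363 to 0.109. Pgk1 was higher by 0.15 (adjusted p = 0.0144), lost without male KO replicate 3 (0.0546) or female KO replicate 2 (0.0555) or 3 (0.0580), within a range of 0.00238 to 0.0580. Tkt was higher by 0.12 (adjusted p = 0.0285), lost with median-of-ratios scaling (0.0502) and without male KO replicate 1 (0.0688) or 3 (0.0919) or female KO replicate 1 (0.0804), 2 (0.0746) or 3 (0.0936), within a range of 0.00710 to 0.0936. Pgam1 differed by -0.12 (adjusted p = 0.0408), lost without the filter (0.0628), with median-of-ratios scaling (0.119), with quantile normalization (0.0667) and without male KO replicate 1 (0.0998), 2 (0.0847) or 3 (0.0913) or female KO replicate 2 (0.124) or 3 (0.125), within a range of 0.0358 to 0.125. The count of 7 became 4 without male KO replicate 1, male KO replicate 3 or female KO replicate 3, 3 without female KO replicate 2, and 11 with all 12 libraries in 1 fit. Over all genes, 2070 calls became 1328 without male KO replicate 3.

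Summed over the 38 genes, the pathway held 8976 ± 103 TPM in male WT and 8733 ± 30.6 TPM in labelled male KO cells, and 8800 ± 97.0 and 8590 ± 62.2 TPM in female cells (SD, n = 3). Every labelled KO library lies below every WT library of its sex (exact permutation p = 0.1, adjusted p = 0.286). The difference was -243 TPM in male and -209 TPM in female cells, and with median-of-ratios scaling -118 and -36.8 TPM, so its size rests on the scaling.

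Neighbouring genes of carbohydrate metabolism were counted from lists of their own, and their counts stand beside calls for 21.6% of all genes in male and 11.5% in female cells. Of 19 other glycolysis and gluconeogenesis genes 7 were tested, and 2 were higher in labelled male KO cells and 0 called in female cells. Pck2, which encodes the mitochondrial phosphoenolpyruvate carboxykinase, went from 74.5 to 155 TPM in male cells (1.05, adjusted p = 7.07e-05), and Adpgk, an ADP-dependent glucokinase, from 53.8 to 64.6 TPM (0.26, adjusted p = 0.0133, limma, Benjamini-Hochberg). Of 12 other sugar transporter genes 3 were tested, and Slc2a6 was lower in labelled male KO cells, with 3.14 and 1.13 TPM (-0.96, adjusted p = 0.00906). The female differences of these 3 genes were 0.040 for Pck2 (adjusted p = 0.608), -0.12 for Adpgk (0.0899) and -0.42 for Slc2a6 (0.113). The interaction was called for Pck2 (adjusted p = 8.41e-06) and Adpgk (0.00125), and was not for Slc2a6 (0.135). Of 11 other pentose phosphate and ribose genes 6 were tested, with 0 called in either sex.

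Of 26 other glycogen genes 21 were tested, and 2 were higher and 1 lower in each sex. Pgm5, a phosphoglucomutase-related gene, went from 1.48 to 9.85 TPM in female cells (2.13, adjusted p = 0.000633, limma, Benjamini-Hochberg). Pgm1, the phosphoglucomutase linking glucose 6-phosphate to glycogen, went from 13.7 to 18.6 TPM in male cells (0.42, adjusted p = 0.0158), a call lost without male WT replicate 1 (0.0547), male WT replicate 3 (0.0606) or male KO replicate 3 (0.0600), within a range of 0.00377 to 0.0606. Pgm2, its relative, was higher in labelled female KO cells, with 33.4 and 43.1 TPM (0.36, adjusted p = 0.00957), and differed between the sexes by -0.55 in the interaction (adjusted p = 0.000264). It was also the lower gene in male cells (-0.19, adjusted p = 0.0412), a call lost with median-of-ratios scaling (0.0671), with quantile normalization (0.0506) and without any 1 of the 6 libraries: 0.0853, 0.0730 and 0.134 without WT replicate 1, 2 and 3, and 0.0970, 0.0757 and 0.0996 without KO replicate 1, 2 and 3, within a range of 0.0132 to 0.134. Phkg2, a phosphorylase kinase subunit, had 30.2 and 23.3 TPM in female cells (-0.36, adjusted p = 0.0437), a call lost without the filter (0.107) and without WT replicate 1 (0.132), 2 (0.117) or 3 (0.0632) or KO replicate 1 (0.1205) or 2 (0.121), within a range of 0.0269 to 0.132. In the other sex Pgm5 differed by -0.48 (adjusted p = 0.0771), Pgm1 by 0.35 (0.0560) and Phkg2 by -0.070 (0.659). The interaction was called for Pgm5 (-2.61, adjusted p = 1.75e-05), and was not for Pgm1 (0.070, 0.787) or Phkg2 (0.29, 0.204).

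Of 13 lactate and pyruvate genes, which act on the end product of glycolysis, 12 were tested, and 4 were higher and 2 lower in labelled male KO cells, and 1 higher and 1 lower in female cells. Their median log2 difference was 0.078 in male and 0.061 in female cells. In male cells Ldhb, a lactate dehydrogenase subunit, went from 24.4 to 107 TPM (2.09, adjusted p = 7.67e-06), and Slc16a3, a lactate exporter, from 12.6 to 46.0 TPM (1.80, adjusted p = 0.000138, limma, Benjamini-Hochberg). Pdk1, which inhibits pyruvate dehydrogenase, went from 3.54 to 9.62 TPM (1.22, adjusted p = 0.000485), and Slc16a1, another monocarboxylate transporter, from 55.8 to 32.8 TPM (-0.75, adjusted p = 0.000329). In female cells none of these 4 was called: the differences were 0.17 for Ldhb (adjusted p = 0.421), -0.45 for Slc16a3 (0.0803), 0.65 for Pdk1 (0.103) and -0.16 for Slc16a1 (0.0720). The interaction was called for Ldhb (1.92, adjusted p = 6.94e-06), Slc16a3 (2.25, 1.60e-05) and Slc16a1 (-0.59, 0.000317), and was not for Pdk1 (0.58, 0.161).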

How the data were processed

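The authors quantified polyA RNA-seq libraries with Salmon 1.10.1 against GRCm38, per the labels, and deposited gene-level TPM for 34866 genes in 12 libraries (3 per group). TPM carry no read depth, so no counting error can be given. Ensembl identifiers were matched to GENCODE M21 (99.4%). Members and lists were chosen with earlier results of these data known. The 12504 genes that averaged 1 TPM or more were tested as log2(TPM + 1) with limma 3.58.1 (R 4.3.3; trend, two-sided, Benjamini-Hochberg, adjusted p under 0.05): 4 pairwise comparisons on 6 libraries each and the sex by genotype interaction on all 12. Genes named in full are members called in a KO comparison or the interaction; other lists give up to 4 called genes with the largest change. Isozyme totals and shares were compared by exact permutation. Alternatives were a pseudocount of 0.1, no filter, a filter of 5 TPM, median-of-ratios and quantile scaling, 1 fit of all libraries, a replicate block, and leaving out each library. Promoter windows are from RefSeq.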

Additional observations from a re-analysis of the deposited data

Results flagged for a closer look

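The change between labelled KO and WT cells differed between male and female cells, by the limma interaction test with Benjamini-Hochberg adjustment, for 5 members, each with 3 libraries per group. The difference, male minus female on the log2 scale, was -0.31 for Hk1, 0.48 for Pfkp, 0.49 for H6pd, 0.19 for Pgd and 0.52 for Gys1. These are 14.3% of the 35 members tested, beside 13.0% of all genes tested. The members' share was below that of all genes with median-of-ratios scaling, with a replicate block and in 7 of the 12 runs that left out 1 library. The calls of H6pd and Gys1 held under every alternative run, and those of Hk1, Pfkp and Pgd were lost under some. For H6pd and Gys1 the labelled KO libraries lie above the WT libraries in male cells and near them in female cells. If each group is 1 line, sex and line cannot be told apart.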

How the results depend on the processing

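Under the alternatives, 106 counts stayed within 1.5 times of the reported value and 34 did not. Among single-gene values of calls, 772 kept the call and 158 lost it, and no direction reversed. These values pool the members with genes of other lists, such as Ldhb, Pck2, Pgm5 and Krt19. Of the member calls alone, 7 of 12 in male and 1 of 6 in female cells held under every alternative run. So did 2 of 3 between WT cells, 3 of 7 between labelled KO cells and 2 of 5 in the interaction.

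Leaving out each library in turn gave 1813 to 2318 genes and 7 to 10 members called in male KO against WT, 774 to 835 genes and 1 to 4 members in female KO against WT, 1037 to 1243 genes and 2 to 3 members between WT cells, 1328 to 1824 genes and 3 to 7 members between labelled KO cells, and 1353 to 1559 genes and 2 to 6 members in the interaction. These fits have fewer samples. Without the filter, which tests more genes, 3 members were called in female cells. With all 12 libraries in 1 fit, 11 members were called between labelled KO cells; the cause was not tested. Median-of-ratios scaling moved the difference in total member TPM to -118 in male and -36.8 in female cells.

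With the replicate number as a replicate block, 670 genes and 1 member were called in female cells, 4 members between labelled KO cells and 3 in the interaction; the male comparison had 2366 genes and 8 members. The numbers do not pair the libraries: same-numbered deviations correlated at -0.0571 to 0.0779, and 6 of 24 checks correlated best with their own number.

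The TPM table gives no read counts, so genes under 10 TPM, whose cultures vary most, cannot be given a counting error. Gene-level TPM separates neither splice forms nor near-identical copies.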
